A study of Arabidopsis thaliana with 12 samples.

Results

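A set of 87 Arabidopsis thaliana genes had transcript levels that went opposite ways in plants overexpressing GROWTH-REGULATING FACTOR1 (GRF1) or GRF3 and in plants whose label names mutations of GRF1, GRF2 and GRF3. Of these, 38 were higher in both overexpressors and lower in the libraries labelled grf123 than in wild type, and 49 were lower in both overexpressors and higher in the libraries labelled grf123. They were taken from 15599 loci with a mean of at least 5 CPM (gene counts scaled to a library total of 1000000) in at least 1 genotype, out of 28775 loci listed. Membership was set on L, the log2 ratio of a genotype's mean CPM to the wild-type mean CPM after adding 0.5 CPM to each. A member had L of at least 0.4 in both overexpressors and at most -0.4 in the libraries labelled grf123, or all 3 signs reversed, and 0.4 on this scale is a 1.32-fold difference. Members were thus chosen by their mean levels in all 4 genotypes, so their contrasts with wild type are given as a description without a test. A locus could pass the filter of 5 CPM through only the genotype where it was high. Members named below that did so include EXPB1, THI2.2, AT1G49450, BETA-VPE, AT1G23340 and AT5G40800, through the libraries labelled grf123, and AT1G23110, through GRF3_OE.

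Messenger RNA was sequenced from whole plants of the Ws strain, 14 days old and grown on MS medium, a standard plant salt medium. There were 12 libraries, 3 for each of 4 genotypes. GRF1_OE plants carried 35S:GRF1-GFP and GRF3_OE plants carried 35S:GRF3-GFP, both driven by the viral 35S promoter, which is active in most cells, so neither transgene kept the normal place and time of its gene. The third genotype was labelled grf1/grf2/grf3 (grf123), and wild type (WT) was Ws with no transgene. All 3 were set against the same WT libraries. The labels did not say how many independent lines or plants each genotype stood for, so spread between libraries may be partly technical. They gave a block design without saying which libraries shared a block.

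GRF proteins are plant transcription factors that bind DNA through a WRC domain and bind GIF coactivators through a QLQ domain. Many GRF transcripts, GRF1, GRF2 and GRF3 among them, are cleaved through the microRNA miR396, and the family is known for promoting cell division and expansion in leaves. Members of both kinds below include genes of jasmonate, ethylene and abscisic acid responses, plant hormones of defence and water deficit.

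GRF1 averaged 193 ± 44.9 CPM in GRF1_OE, 11.2 ± 0.523 in GRF3_OE and 10.8 ± 1.96 in the libraries labelled grf123, against 20.9 ± 1.55 CPM in WT (SD, n = 3 each, here and below). GRF3 averaged 35.0 ± 3.23 CPM in GRF1_OE, 265 ± 21.6 in GRF3_OE and 28.5 ± 2.45 in the libraries labelled grf123, against 27.3 ± 7.38 in WT. Thus GRF3 transcript in the libraries labelled grf123 lay within the WT spread, which goes against the label at the level of RNA, although a disrupted gene can still give reads. GRF2 averaged 0.957 ± 0.638 CPM in GRF1_OE, 1.1 ± 0.354 in GRF3_OE and 1.16 ± 0.284 in the libraries labelled grf123, against 13.6 ± 3.2 in WT, so its level was low in all 3 other genotypes. Gene counts per library ran from 2820223 to 14277574, with the lowest in WT replicate 3. Reads of 18S ribosomal RNA took 13.1 to 19.4% of them for the overexpressors, 21.6 to 24.4% for grf123 and 18.0 to 31.8% for WT. Reads outside genes, as a share of these and gene counts together, were 4.15 to 5.21% for the overexpressors. They were 6.5 to 9.68% for grf123 and 8.41 to 12.2% for WT, so all overexpressor libraries were lower. The part of this difference in the contrasts was not tested.

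The 38 members higher in the overexpressors had a median L of 0.81 in GRF1_OE, 0.73 in GRF3_OE and -0.62 in the libraries labelled grf123. The 49 members lower in the overexpressors had medians of -0.68 in GRF1_OE, -0.69 in GRF3_OE and 0.59 in the libraries labelled grf123. Over all 15599 kept loci the medians were 0.07, 0.05 and 0.04 in the same order of genotypes. Levels were modest in both kinds. The median member of the first kind stood at 18.1 CPM in GRF1_OE, 14.2 in GRF3_OE and 5.21 in the libraries labelled grf123, against 8.76 in WT. For the other kind the medians were 5.96 CPM in GRF1_OE, 5.12 in GRF3_OE and 16.6 in the libraries labelled grf123, against 10.3 in WT. Because the samples were whole plants, fewer cells of a type and less RNA per cell cannot be told apart.

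**Figure D1:**
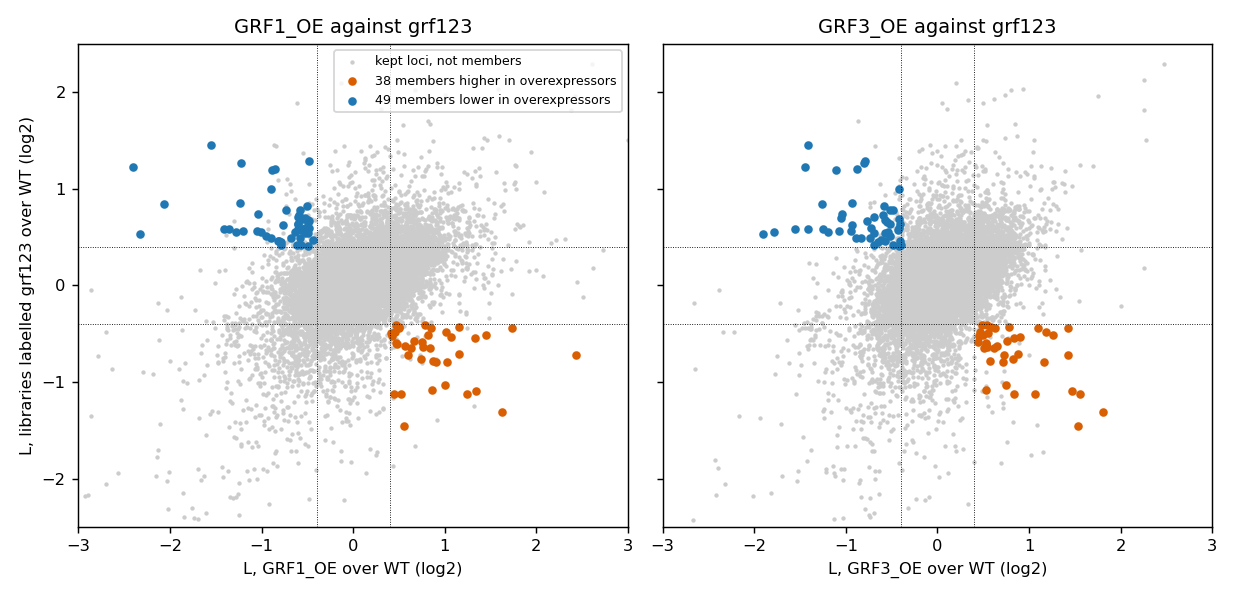
L in GRF1_OE (left, horizontal axis) and GRF3_OE (right, horizontal axis) against L in the libraries labelled grf123 (vertical axis), all log2 ratios to WT, for 15599 kept loci, of which 39 on the left and 28 on the right lie outside the axes. The 38 members higher in the overexpressors fill the lower right corner and the 49 lower ones the upper left corner, beyond the dotted lines at -0.4 and 0.4 that chose them.

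Library by library, the first kind had a median log2 difference from the WT mean of 0.91, 0.56 and 0.85 for GRF1_OE, 0.80, 0.79 and 0.46 for GRF3_OE and -0.62, -0.99 and -0.49 for the libraries labelled grf123, against 0.01, -0.02 and 0.01 in WT. The other kind had medians of -0.88, -0.59 and -0.73 for GRF1_OE, -0.55, -1.15 and -0.72 for GRF3_OE and 0.36, 0.61 and 0.84 in the libraries labelled grf123, against 0.04, -0.16 and 0.10 in WT. In GRF1_OE, GRF3_OE and the libraries labelled grf123, no library had a median on the other side of WT from its fellows. The rule chose members by the means of these same libraries, so this is largely set by the choice.

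**Figure D2:**
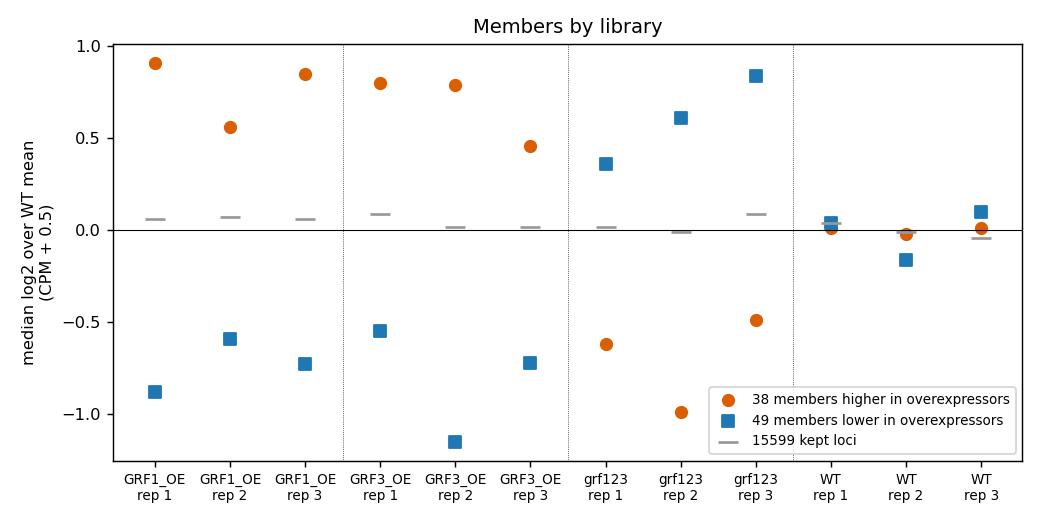
Median log2 ratio of CPM + 0.5 to the WT mean (vertical axis) for each of the 12 libraries (horizontal axis), over the 38 members higher in the overexpressors (circles), the 49 lower ones (squares) and all 15599 kept loci (grey dashes). The 6 overexpressor libraries show circles between 0.46 and 0.91, and the 3 libraries labelled grf123 show them between -0.99 and -0.49.

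How far the libraries separated differed from gene to gene. Among the 38, all 6 overexpressor libraries lay above all 3 WT libraries for 22 members (15.8% of kept loci did so), and all 3 libraries labelled grf123 lay below WT for 18 (9.65%). All 6 overexpressor libraries lay above the libraries labelled grf123 for 36 (12.4%), and both steps held without overlap for 14 (0.359%). Among the 49, the overexpressors lay wholly below WT for 28 members (10.1%), the libraries labelled grf123 wholly above WT for 20 (12.2%), and the overexpressors wholly below the libraries labelled grf123 for 47 (11.1%). Both steps held without overlap for 16 of the 49 (0.5%). With edgeR's quasi-likelihood test at an adjusted p under 0.05, 23 of the 38 were called higher in GRF1_OE (10% of 17938 tested genes), 20 higher in GRF3_OE (6.07%) and 12 lower in the libraries labelled grf123 (2.77%), with 6 called in all 3 contrasts (0.0502%). Of the 49, 29 were called lower in GRF1_OE (11.8%), 21 lower in GRF3_OE (6.34%) and 11 higher in the libraries labelled grf123 (2.11%), with 8 called in all 3 (0.0892%). The rule used the same contrasts, so nothing is read from these shares. WT libraries also enter all 3 contrasts.

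Jasmonate and ethylene genes stood among the members higher in the overexpressors. PDF1.2, an antifungal defensin induced by jasmonate and ethylene together, had 46.4, 33.8 and 46.8 CPM in GRF1_OE, 42.1, 74.6 and 27.2 CPM in GRF3_OE and 6.04, 5.58 and 3.67 in the libraries labelled grf123, against 15.9, 14.9 and 9.36 in WT. Its libraries fell in 3 separate ranges, overexpressors on top and the libraries labelled grf123 at the bottom, with GRF3_OE the most spread. Reads shared with its near-identical copies PDF1.2b and PDF1.2c could have been lost in counting, so its level is uncertain. Allene oxide cyclases form the ring of the jasmonate precursor, and a pair of them were members. AOC1 had 51.2, 37.9 and 45.4 CPM in GRF1_OE, 49.7, 60.7 and 36.3 CPM in GRF3_OE and 19.1, 14.9 and 19 in the libraries labelled grf123, against 32.2, 30.8 and 25.5 in WT. AOC2 had 116, 81.1 and 79.9 CPM in GRF1_OE, 87.9, 101 and 52.3 CPM in GRF3_OE and 18.5, 23.1 and 27.8 in the libraries labelled grf123, against 33.6, 38.4 and 28.1 in WT. Both genes separated all 3 ranges without overlap, and AOC2 differed from WT more in the overexpressors (L of 1.45 in GRF1_OE and 1.26 in GRF3_OE) than in the libraries labelled grf123 (-0.52). They are direct neighbours on chromosome 3, 1331 bases apart, the only members within 3 genes of each other, and as close copies they may have shared reads. JRG21, a jasmonate-regulated dioxygenase, had 17.1, 8.74 and 15 CPM in GRF1_OE, 14.9, 9.38 and 9.07 CPM in GRF3_OE and 4.83, 1.86 and 3.4 in the libraries labelled grf123, against 5.63, 3.01 and 8.84 in WT. WT overlapped the lowest GRF1_OE library of JRG21 as well as the libraries labelled grf123.

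The same list held a gene of the opposite kind. THI2.2, a small antimicrobial thionin, had 1.24, 1.19 and 1.03 CPM in GRF1_OE, 1.24, 0.682 and 1.53 CPM in GRF3_OE and 8.65, 6.69 and 2.86 in the libraries labelled grf123, against 4.66, 2.83 and 4.16 in WT. All 6 overexpressor libraries were below WT, while the libraries labelled grf123 and WT overlapped. Of 19 other jasmonate and ethylene genes tested with edgeR, 3 rose and 0 fell in GRF1_OE, 3 rose and 0 fell in GRF3_OE, and 3 rose and 3 fell in libraries labelled grf123. Their median log2 changes were 0.22 in GRF1_OE, 0.28 in GRF3_OE and -0.21 in the libraries labelled grf123, against 0, 0 and 0.01 over all genes tested. PR4, a chitin-binding defence protein, rose in GRF1_OE (log2 change 1.41 ± 0.15 SE, adjusted p = 1.44e-05, edgeR) and in GRF3_OE (1.1 ± 0.15, adjusted p = 0.000634). Its change in the libraries labelled grf123 was -0.21 ± 0.15 (adjusted p = 0.511). ORA59, the ethylene response factor that activates PDF1.2, fell in libraries labelled grf123 by 2.04 on the log2 scale (SE 0.33, adjusted p = 0.00072, edgeR). In the overexpressors ORA59 had log2 changes of -0.15 ± 0.27 in GRF1_OE and -0.35 ± 0.28 in GRF3_OE. NATA1, an acetyltransferase induced by jasmonate, rose in all 3 genotypes, by log2 changes of 2.74 in GRF1_OE, 2.66 in GRF3_OE and 2.28 in the libraries labelled grf123 (largest adjusted p = 0.0304, edgeR).

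**Figure D3:**
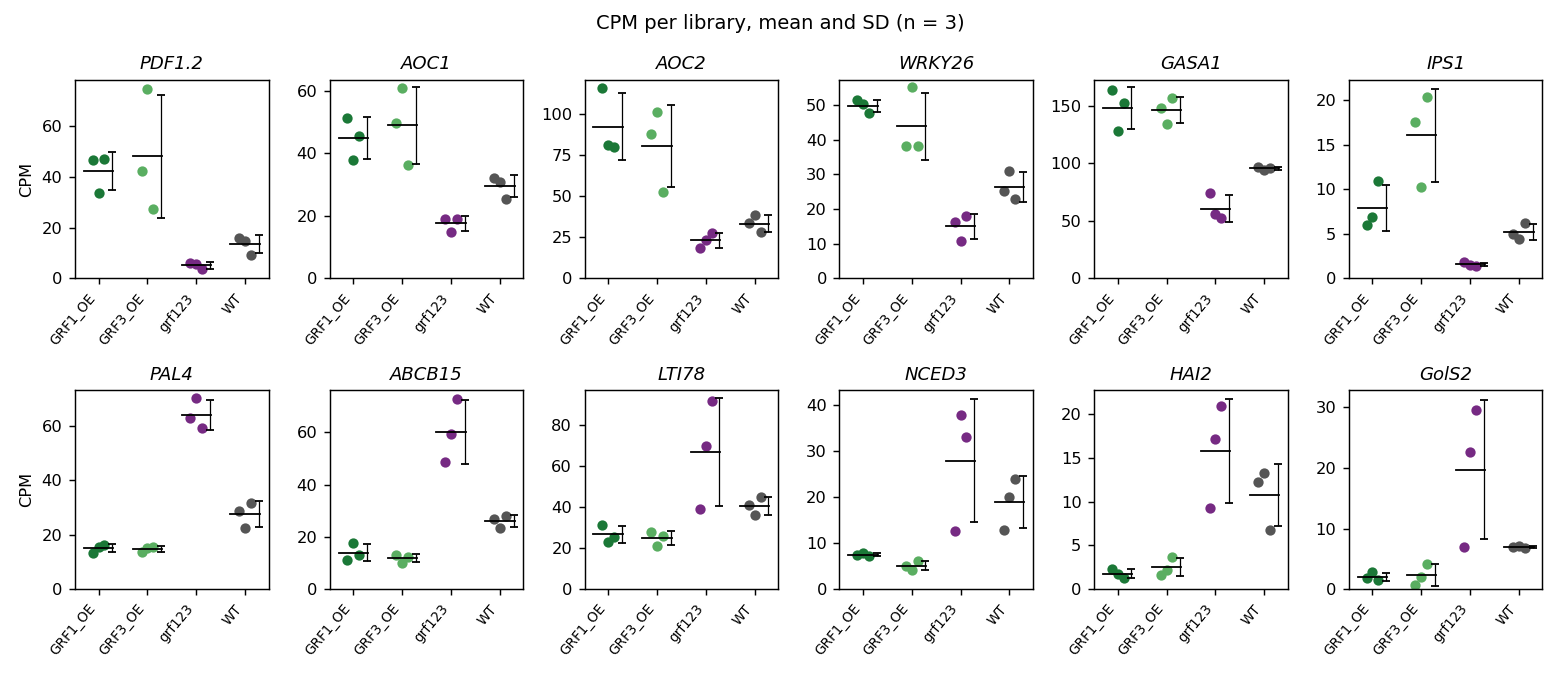
CPM (vertical axes, from 0, scale per gene) of 12 members in the 3 libraries (points) of GRF1_OE, GRF3_OE, grf123 and WT, with the mean (horizontal line) and SD (bar). The upper 6 genes are higher in the overexpressors and the lower 6 are lower there. PAL4 and ABCB15 show 3 separate ranges, whereas replicate 1 labelled grf123 of LTI78, NCED3, HAI2 and GolS2 lies within or near the WT range.

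Members of both kinds encode transcription factors, and those of the first kind varied widely in level. WRKY26, a WRKY factor known from heat stress, had 51.4, 50.2 and 47.8 CPM in GRF1_OE, 38.2, 55.1 and 38.2 CPM in GRF3_OE and 16.3, 10.8 and 17.9 in the libraries labelled grf123, against 25.2, 31.1 and 22.9 in WT. The 3 ranges did not overlap. WRKY60, which acts with other WRKY factors in defence and abscisic acid responses, had 25.4, 17.7 and 27.7 CPM in GRF1_OE, 20.6, 24.6 and 15.2 CPM in GRF3_OE and 10.5, 5.58 and 11.9 in the libraries labelled grf123, against 16.2, 13.4 and 8.84 in WT. Its lowest GRF3_OE library lay below the highest WT library, and 2 libraries labelled grf123 lay within the WT range. EBP, an ethylene response factor of the oxygen-sensing class, was the most abundant member, at 658, 554 and 583 CPM in GRF1_OE, 561, 858 and 484 CPM in GRF3_OE and 246, 267 and 270 in the libraries labelled grf123, against 409, 524 and 281 in WT. WT overlapped the overexpressors but not the libraries labelled grf123. SEP3, a MADS-box factor of floral organ identity, had 20.6, 13.1 and 20.9 CPM in GRF1_OE, 19.8, 20 and 18.6 CPM in GRF3_OE and 8.25, 5.95 and 8.14 in the libraries labelled grf123, against 11.9, 10.6 and 11.4 in WT, in 3 separate ranges. It belonged to a list of 7 flower markers whose summed level ran from 42.1 to 59.5 CPM over the 6 overexpressor libraries, from 20.5 to 31.8 CPM over those labelled grf123 and from 26 to 34.6 CPM over WT, with LFY at 0 in GRF1_OE. SEP3 is itself in that sum, and the floral identity genes AP1, AP3 and AG averaged at most 1.14 CPM in every genotype. PI, another floral identity gene of the list, averaged 10.8 CPM in GRF1_OE, 4.98 in GRF3_OE and 2.66 in the libraries labelled grf123, against 2.33 in WT. It rose in GRF1_OE (log2 change 2.04 ± 0.31 SE, adjusted p = 7.33e-05, edgeR), and its change in GRF3_OE was 0.95 ± 0.34 (adjusted p = 0.0644). Whether flower buds differed between genotypes was not tested.

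RVE2, a MYB-like factor related to the circadian clock, had 16.7, 19.2 and 23.2 CPM in GRF1_OE, 14, 10.7 and 16.9 CPM in GRF3_OE and 5.63, 4.09 and 5.37 in the libraries labelled grf123, against 5.47, 9.37 and 7.8 in WT. WT and the libraries labelled grf123 overlapped slightly. Among the other 11 morning clock genes, 1 rose (PRR7) and 8 fell in GRF1_OE, 0 rose and 2 fell in GRF3_OE, and 0 rose and 1 fell in libraries labelled grf123 (edgeR). CCA1, a central morning factor, averaged 98.2 CPM in GRF1_OE, 148 in GRF3_OE and 186 in the libraries labelled grf123, against 174 in WT, and fell in GRF1_OE (log2 change -0.92 ± 0.14, adjusted p = 0.000173, edgeR). DREB2C, an activator in heat and drought responses, had 9.49, 7.42 and 5.13 CPM in GRF1_OE, 13.2, 5.29 and 6.42 CPM in GRF3_OE and 3.62, 1.86 and 1.34 in the libraries labelled grf123, against 2.09, 2.83 and 5.2 in WT. AT1G36060, annotated with the same DNA-binding domain as DREB factors, had 17.3, 17.9 and 17.2 CPM in GRF1_OE, 17.7, 12.1 and 10.3 CPM in GRF3_OE and 4.23, 5.58 and 6.71 in the libraries labelled grf123, against 7.4, 11.1 and 4.16 in WT. For both genes WT overlapped the libraries labelled grf123 and the lowest overexpressor library. NAC084, a NAC-domain factor, had a mean of 5.56 ± 2.07 CPM in GRF1_OE, 5.69 ± 3.3 CPM in GRF3_OE and 2.65 ± 1.83 in the libraries labelled grf123, against 4.03 ± 0.563 in WT, with 1 library of each overexpressor below the lowest WT library and another GRF3_OE library within the WT range.

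Other members of the first kind encode enzymes and small proteins. AT3G19550, annotated as a glutamate racemase, had 7.84, 7.55 and 6.16 CPM in GRF1_OE, 8.87, 8.53 and 6.28 CPM in GRF3_OE and 2.21, 0 and 0.537 in the libraries labelled grf123, against 3.06, 1.95 and 2.6 in WT. Its difference between GRF1_OE and WT (L of 1.34) and that between the libraries labelled grf123 and WT (-1.1) were of like size, but it overlaps AT3G19552 on the other strand, and whether the counting used strand was not given. AT1G27020, a protein of no named function, had 86.5, 77.9 and 95.5 CPM in GRF1_OE, 62.5, 119 and 48.8 CPM in GRF3_OE and 17.5, 16.7 and 14.9 in the libraries labelled grf123, against 41.7, 36.4 and 31.2 in WT. LAS1, lanosterol synthase, a sterol-forming cyclase, had 23.1, 15.8 and 21.1 CPM in GRF1_OE, 18.15, 27.6 and 20.5 CPM in GRF3_OE and 7.04, 4.46 and 4.47 in the libraries labelled grf123, against 9.81, 7.96 and 10.9 in WT. In both, the 3 ranges were separate. AT4G15680, of the thioredoxin superfamily, had 14.9, 16 and 20.3 CPM in GRF1_OE, 18.8, 14.7 and 9.21 CPM in GRF3_OE and 5.63, 2.23 and 3.49 in the libraries labelled grf123, against 8.2, 7.78 and 8.84 in WT. CYP81D1, a cytochrome P450, had 23.3, 18 and 25 CPM in GRF1_OE, 23.3, 28.2 and 19 CPM in GRF3_OE and 5.23, 7.81 and 9.48 in the libraries labelled grf123, against 15.9, 14.5 and 8.84 in WT. The lowest WT library of CYP81D1 lay below 1 library labelled grf123. GASA1, a gibberellin-responsive small peptide, had 164, 128 and 153 CPM in GRF1_OE, 148, 134 and 156 CPM in GRF3_OE and 74, 55.8 and 52.3 in the libraries labelled grf123, against 96.6, 93.9 and 96.2 in WT. The 3 ranges of GASA1 were separate. A relative on the same hormone list, GASA4, did not share the pattern, since it rose in GRF1_OE (log2 change 1.47 ± 0.12), in GRF3_OE (0.89 ± 0.12) and in the libraries labelled grf123 (1.13 ± 0.12; largest adjusted p = 6.33e-05, edgeR).

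SAG21, a late embryogenesis abundant protein of senescence and oxidative stress, had 233, 166 and 203 CPM in GRF1_OE, 149, 164 and 165 CPM in GRF3_OE and 65.8, 79.6 and 92.1 in the libraries labelled grf123, against 105, 113 and 122 in WT. It separated the 3 ranges, but it overlaps an annotated gene on its own strand, AT4G04125. MSRB7, which repairs oxidised methionine, had 13.4, 9.27 and 7.39 CPM in GRF1_OE, 8.25, 10.6 and 5.02 CPM in GRF3_OE and 1.61, 0.744 and 3.13 in the libraries labelled grf123, against 2.73, 2.12 and 3.12 in WT. Its L was 1.74 in GRF1_OE and 1.42 in GRF3_OE but only -0.44 in the libraries labelled grf123, whose range overlapped WT. OASA2, of the cysteine synthase family, had 19.2, 18.7 and 15.8 CPM in GRF1_OE, 14.2, 15 and 13.1 CPM in GRF3_OE and 4.23, 5.21 and 8.77 in the libraries labelled grf123, against 5.15, 13.8 and 10.4 in WT. WT overlapped both sides for this gene. CCD8, an enzyme of strigolactone synthesis, had a mean of 7.7 ± 2.79 CPM in GRF1_OE, 6.8 ± 2.53 CPM in GRF3_OE and 2.2 ± 0.816 in the libraries labelled grf123, against 3.41 ± 1.26 in WT. IPS1, a phosphate starvation transcript that sequesters the microRNA miR399, had 5.98, 6.89 and 10.9 CPM in GRF1_OE, 17.5, 10.2 and 20.4 CPM in GRF3_OE and 1.81, 1.49 and 1.43 in the libraries labelled grf123, against 4.99, 4.42 and 6.24 in WT. All 3 libraries labelled grf123 lay below WT, and GRF1_OE overlapped WT. Among 20 other phosphate starvation genes edgeR called 0 up and 2 down in GRF1_OE, 7 up and 1 down in GRF3_OE, and 1 up and 8 down in the libraries labelled grf123. GDPD1, a phosphodiesterase of lipid turnover, averaged 28.6 CPM in GRF1_OE, 48.4 in GRF3_OE and 12.3 in the libraries labelled grf123, against 29.3 in WT. It rose in GRF3_OE (log2 change 0.68 ± 0.19, adjusted p = 0.0307, edgeR) and fell in libraries labelled grf123 (-1.38 ± 0.23, adjusted p = 0.00158), with -0.14 ± 0.20 in GRF1_OE. Root markers, 17 in all and none at 0, summed to 57.2, 71.4 and 72.1 CPM in GRF1_OE, 126, 58.3 and 72 CPM in GRF3_OE and 68.2, 31.6 and 57.3 in the libraries labelled grf123, against 140, 121 and 104 in WT. Of the 12 tested, 0 rose and 9 fell in GRF1_OE, 0 rose and 3 fell in GRF3_OE, and 0 rose and 6 fell in libraries labelled grf123 (edgeR). The part of root content in the values of phosphate genes, and in those of the root transporter AMT1;3 below, was not tested.

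Among the 49 members lower in the overexpressors, genes of abscisic acid and water deficit had some of the largest differences. GolS2, galactinol synthase of the raffinose sugars made in drought, had the largest smallest L and stood at 1.86, 2.78 and 1.44 CPM in GRF1_OE, 0.619, 2.05 and 4.19 CPM in GRF3_OE and 7.04, 22.7 and 29.5 in the libraries labelled grf123, against 6.91, 7.07 and 6.76 in WT. Replicate 1 labelled grf123 was near WT, so L of 1.45 there rested on replicates 2 and 3. NCED3, which catalyses the limiting step of abscisic acid synthesis, had 7.43, 7.81 and 7.19 CPM in GRF1_OE, 4.95, 4.27 and 6.14 CPM in GRF3_OE and 12.7, 37.9 and 33.1 in the libraries labelled grf123, against 12.9, 20 and 23.9 in WT. HAI2, a protein phosphatase that holds back abscisic acid signalling, had 2.27, 1.72 and 1.23 CPM in GRF1_OE, 1.65, 2.22 and 3.63 CPM in GRF3_OE and 9.26, 17.1 and 20.8 in the libraries labelled grf123, against 12.2, 13.3 and 6.76 in WT. LTI78, also called RD29A and long used as a marker of cold and drought responses, had 31.2, 23.2 and 25.7 CPM in GRF1_OE, 27.6, 21.2 and 26.1 CPM in GRF3_OE and 39, 69.9 and 91.6 in the libraries labelled grf123, against 41, 36.1 and 44.7 in WT. In all 4 genes every overexpressor library was below every WT library, and replicate 1 labelled grf123 lay within or near the WT range. AT3G27250, of no named function, followed the same course with 1.44, 1.99 and 0.821 CPM in GRF1_OE, 3.51, 2.39 and 3.77 CPM in GRF3_OE and 9.46, 21.2 and 38.8 in the libraries labelled grf123, against 10.6, 11 and 7.28 in WT.

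The other genes of the pathway were counted apart from these members. Of 24 other abscisic acid and desiccation genes, 1 rose and 12 fell in GRF1_OE, 1 rose and 10 fell in GRF3_OE, and 3 rose and 4 fell in libraries labelled grf123 (edgeR). Their median log2 changes were -0.57, -0.44 and -0.13 in that order. LEA7, a late embryogenesis abundant protein, averaged 2.38 CPM in GRF1_OE, 11.4 in GRF3_OE and 21.6 in the libraries labelled grf123, against 195 in WT, and fell in all 3 (largest adjusted p = 0.0287, edgeR). HAI1, a close relative of HAI2, fell in GRF1_OE by 2.31 on the log2 scale (SE 0.33, adjusted p = 9.73e-05, edgeR) and in GRF3_OE by 1.78 (SE 0.31, adjusted p = 0.00151), and had -0.14 ± 0.27 in the libraries labelled grf123. KIN2, a cold-induced protein, rose in the libraries labelled grf123 (log2 change 1.25 ± 0.26, adjusted p = 0.00941, edgeR). A list of 12 seed markers, which late embryogenesis genes can accompany, summed to between 2.48 and 4.13 CPM over the 6 overexpressor libraries. The sum was 2.41, 27.9 and 55.1 CPM in the libraries labelled grf123, and 10.9, 72.7 and 28.1 CPM in WT. The storage protein genes SESA3 and SESA4 were at 0 in GRF1_OE, GRF3_OE and the libraries labelled grf123, with 5 of the 12 at 0 in GRF1_OE, 6 in GRF3_OE and 4 in the libraries labelled grf123. The part of seed material in the values of abscisic acid and water deficit genes was not tested.

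ICL, isocitrate lyase of the glyoxylate cycle that turns seed oil into sugar, had 6.4, 3.05 and 4.52 CPM in GRF1_OE, 6.4, 4.95 and 6.14 CPM in GRF3_OE and 13.9, 14.5 and 35.7 in the libraries labelled grf123, against 9.97, 10.3 and 14.6 in WT. Replicate 3 labelled grf123 stood well above the other 2. AMT1;3, an ammonium transporter of roots, had 4.54, 4.9 and 4.93 CPM in GRF1_OE, 4.54, 3.41 and 4.74 CPM in GRF3_OE and 8.05, 8.92 and 23.3 in the libraries labelled grf123, against 10.9, 3.71 and 10.9 in WT. Here too replicate 3 labelled grf123 stood apart, and WT was widely spread. Its smallest signed L of 0.62 was -0.01 without that replicate and 0.28 without WT replicate 2, so membership of AMT1;3 rested on each of these libraries. BETA-VPE, a vacuolar protease of seeds, had 1.65, 2.78 and 3.08 CPM in GRF1_OE, 4.13, 1.02 and 2.79 CPM in GRF3_OE and 4.63, 7.07 and 10 in the libraries labelled grf123, against 2.25, 3.01 and 6.76 in WT. AT5G40800, of no named function, was near the limit of detection in the overexpressors, with 0, 0.132 and 0.616 CPM in GRF1_OE, 0.825, 0.341 and 1.26 CPM in GRF3_OE and 1.81, 4.46 and 9.13 in the libraries labelled grf123, against 3.7, 2.65 and 1.56 in WT. The GRF1_OE libraries held 0, 1 and 3 reads of it. Only the libraries labelled grf123 gave AT5G40800 a mean of at least 5 CPM (5.13 CPM), and that mean rested on replicate 3. Without that library AT5G40800 was not among the kept loci.

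Phenylpropanoid and transport genes were among the members lower in the overexpressors. PAL4, a phenylalanine ammonia-lyase at the entry to lignin and flavonoid synthesis, had 13.4, 15.4 and 16.4 CPM in GRF1_OE, 13.6, 15.2 and 15.6 CPM in GRF3_OE and 63, 70.3 and 59.3 in the libraries labelled grf123, against 28.8, 22.5 and 31.7 in WT. This gave a mean of 15.1 ± 1.53 CPM in GRF1_OE, 14.8 ± 1.06 CPM in GRF3_OE and 64.2 ± 5.58 in the libraries labelled grf123, against 27.7 ± 4.74 in WT. The ranges were far apart in both steps. ABCB15, an ABC transporter, had 11.1, 17.5 and 13.1 CPM in GRF1_OE, 13.2, 10.1 and 12.3 CPM in GRF3_OE and 48.5, 59.5 and 72.9 in the libraries labelled grf123, against 26.9, 23.3 and 28.1 in WT. It showed the same 3 separate ranges. DIR6, a dirigent protein that guides lignan formation, had 5.98, 9.14 and 7.39 CPM in GRF1_OE, 11.1, 5.63 and 7.26 CPM in GRF3_OE and 14.9, 12.3 and 19.1 in the libraries labelled grf123, against 13.3, 8.84 and 12 in WT, and WT overlapped both sides. Among the other 12 phenylpropanoid and lignin genes, 0 rose and 7 fell in GRF1_OE, 0 rose and 3 fell in GRF3_OE, and 3 rose and 1 fell in libraries labelled grf123 (edgeR). The other ammonia-lyases differed from PAL4 in the libraries labelled grf123. PAL1 had a log2 change of 0.22 ± 0.11 there (adjusted p = 0.264, edgeR), PAL2 had -0.03 ± 0.13 (adjusted p = 0.939) and PAL3 fell by 0.80 (SE 0.21, adjusted p = 0.0274). In GRF1_OE all 3 fell, by 0.62, 0.65 and 0.63 on the log2 scale (largest adjusted p = 0.0282, edgeR). Summed levels of 10 xylem markers ran from 71.8 to 122 CPM over the 6 overexpressor libraries, from 142 to 175 CPM over those labelled grf123 and from 121 to 156 CPM over WT, with no marker at 0, and the part of xylem content in the phenylpropanoid values was not tested.

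Members lower in the overexpressors also included an auxin carrier and factors known from vascular tissue. LAX2, an auxin influx carrier of vascular tissue, had 7.84, 14.4 and 12.1 CPM in GRF1_OE, 13.8, 10.1 and 15.5 CPM in GRF3_OE and 26.2, 29.4 and 27.1 in the libraries labelled grf123, against 20.7, 15.9 and 16.1 in WT. The 3 ranges did not overlap. BHLH32, a basic helix-loop-helix factor of vascular cell division, had 7.22, 10.7 and 7.39 CPM in GRF1_OE, 6.19, 7.68 and 8.65 CPM in GRF3_OE and 16.3, 16.4 and 22.2 in the libraries labelled grf123, against 10.5, 11.5 and 16.6 in WT. AT1G68810, a second factor of the same domain class, had 8.46, 11.3 and 6.16 CPM in GRF1_OE, 8.05, 9.38 and 10 CPM in GRF3_OE and 15.5, 18.6 and 15.6 in the libraries labelled grf123, against 15.8, 12.6 and 8.84 in WT. In both, WT overlapped the libraries labelled grf123 and the overexpressors. A list of auxin response genes held none of the 87, and of its 15 tested genes 0 rose and 5 fell in GRF1_OE, 0 rose and 4 fell in GRF3_OE, and 1 rose and 1 fell in libraries labelled grf123 (edgeR).

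Cell wall and protease genes included EXPB1, a beta-expansin that loosens walls, with 1.65, 1.32 and 0.616 CPM in GRF1_OE, 2.48, 1.19 and 1.67 CPM in GRF3_OE and 3.62, 11.2 and 12.4 in the libraries labelled grf123, against 2.89, 3.36 and 4.16 in WT. Replicate 1 labelled grf123 lay within the WT range. Among the 19 other expansin and xyloglucan genes, 0 rose and 3 fell in GRF1_OE, 0 rose and 2 fell in GRF3_OE, and 2 rose and 7 fell in libraries labelled grf123 (edgeR), so most of the called genes of that list went down in the last group, opposite to EXPB1. GH9B8, a cellulase-like hydrolase, had a mean of 6.15 ± 0.399 CPM in GRF1_OE, 6.8 ± 2 CPM in GRF3_OE and 14.1 ± 3.63 in the libraries labelled grf123, against 9.36 ± 1.99 in WT. Subtilisin-like proteases gave 3 of the 49 and none of the 38, out of 24 kept loci annotated so. Over all 15599 kept loci, 49 were members lower in the overexpressors and 38 were members higher there. The 36 kept loci with a WRKY symbol gave 2 of the 38 and 0 of the 49. These 3 proteases were named after their values were seen, so nothing is read from this count. AIR3, an auxin-induced protease of lateral root emergence, had 40.7, 39.7 and 42.9 CPM in GRF1_OE, 45, 36.7 and 53.7 CPM in GRF3_OE and 85.7, 102 and 104 in the libraries labelled grf123, against 73, 70.6 and 69.7 in WT. ATSBT5.2 had 23.5, 43.2 and 48.7 CPM in GRF1_OE, 47.2, 36.5 and 38.8 CPM in GRF3_OE and 89.9, 86.6 and 98.3 in the libraries labelled grf123, against 53.7, 58.5 and 64 in WT. AT2G39850 had 29.1, 74.2 and 53.4 CPM in GRF1_OE, 53.4, 50.3 and 59.2 CPM in GRF3_OE and 137, 134 and 140 in the libraries labelled grf123, against 94.4, 83.3 and 115 in WT. All 3 separated overexpressors, WT and the libraries labelled grf123 into distinct ranges, although GRF1_OE replicate 1 was lower than its fellows in ATSBT5.2 and AT2G39850. AIR3 overlaps AT2G04150 and AT2G04725 on the other strand.

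Other members lower in the overexpressors have roles in the cuticle or in immunity. PEL3, an acyltransferase needed for the leaf cuticle, had 22.7, 25.7 and 28.3 CPM in GRF1_OE, 31.8, 25.9 and 34.2 CPM in GRF3_OE and 64.2, 64.3 and 60.7 in the libraries labelled grf123, against 46.8, 42.3 and 47.8 in WT. Both steps were without overlap. CYP77B1, a cytochrome P450, had a mean of 5.94 ± 2.53 CPM in GRF1_OE, 4.79 ± 1.52 CPM in GRF3_OE and 13.8 ± 3.84 in the libraries labelled grf123, against 8.48 ± 2.85 in WT. A list of cuticle and wax genes held none of the 87, and of its 13 tested genes 2 rose and 6 fell in GRF1_OE, 1 rose and 0 fell in GRF3_OE, and 2 rose and 5 fell in libraries labelled grf123 (edgeR). AT5G48490, of the lipid transfer protein class, had 27.9, 32.8 and 31.6 CPM in GRF1_OE, 28.3, 28.7 and 22.3 CPM in GRF3_OE and 66.8, 75.9 and 66.8 in the libraries labelled grf123, against 48.4, 45.4 and 54.6 in WT, again in 3 separate ranges. PBS3, an enzyme of salicylic acid synthesis, had 3.92, 4.5 and 4.11 CPM in GRF1_OE, 4.74, 3.92 and 5.16 CPM in GRF3_OE and 9.05, 10.4 and 12.2 in the libraries labelled grf123, against 8.2, 4.6 and 6.24 in WT. WT overlapped the overexpressors but not the libraries labelled grf123. DMR6, a hydroxylase that inactivates salicylic acid, had 22.3, 23.2 and 23.4 CPM in GRF1_OE, 26.6, 17.57 and 20.5 CPM in GRF3_OE and 46.7, 45.4 and 50.6 in the libraries labelled grf123, against 30.2, 26 and 41.1 in WT. Its overexpressor and WT ranges overlapped, while the libraries labelled grf123 stood above both. ACD6, a membrane protein that promotes salicylic acid defence, had 3.3, 6.23 and 6.36 CPM in GRF1_OE, 4.13, 2.22 and 4.19 CPM in GRF3_OE and 11.7, 11.2 and 16.3 in the libraries labelled grf123, against 14.8, 3.01 and 5.72 in WT, and WT spread over most of the range. Among 12 other salicylic acid genes, edgeR called 1 up and 0 down in GRF1_OE, 1 up and 2 down in GRF3_OE, and 0 either way in the libraries labelled grf123.

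Other members of the second kind with 3 separate ranges were BBX16, a B-box zinc finger protein, FBH3, a bHLH activator of flowering, and HTA4, a histone H2A. BBX16 had 25, 32.6 and 30.4 CPM in GRF1_OE, 40.4, 35.1 and 29 CPM in GRF3_OE and 73, 97.1 and 84 in the libraries labelled grf123, against 58.4, 46.2 and 42.6 in WT. FBH3 had 12, 17.62 and 14 CPM in GRF1_OE, 19.8, 12.3 and 14.6 CPM in GRF3_OE and 28.2, 37.6 and 36.4 in the libraries labelled grf123, against 26.5, 23.2 and 26.5 in WT. HTA4 had 11.1, 12.7 and 11.5 CPM in GRF1_OE, 16.1, 10.2 and 8.79 CPM in GRF3_OE and 20.3, 33.8 and 36 in the libraries labelled grf123, against 18.5, 17.7 and 17.7 in WT. HTA4 overlaps AT4G13564 on the other strand. AT1G49450, a WD40-repeat protein, had 2.27, 1.85 and 1.85 CPM in GRF1_OE, 2.27, 1.02 and 2.65 CPM in GRF3_OE and 8.05, 7.44 and 8.68 in the libraries labelled grf123, against 3.22, 3.89 and 6.76 in WT, and CIPK5, a calcium-signalling kinase, had 15.5, 15.6 and 16.6 CPM in GRF1_OE, 24.8, 18.1 and 22 CPM in GRF3_OE and 30, 48.3 and 55.3 in the libraries labelled grf123, against 38, 34.8 and 20.8 in WT. The ranges of AT1G49450 were separate, whereas WT overlapped both sides in CIPK5.

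The overexpressors were compared with each other. No difference between them was part of the rule, but it required L past the threshold on the same side in both. Members were thus chosen by the means compared here, which restricts how far the overexpressors could differ in opposite directions. Counts, medians and adjusted p values of members in this contrast are therefore given as a description. edgeR called 204 of 17938 genes (1.14%), 0.485% higher and 0.652% lower in GRF1_OE. Of the 38 members higher in the overexpressors, 1 was called higher and 2 lower in GRF1_OE. Of the 49 others, 0 were called, with 4 at an unadjusted p under 0.05. Median log2 differences of GRF1_OE from GRF3_OE were -0.03 over the 38 and -0.06 over the 49, against -0.01 over all tested genes. A p that misses the threshold does not show that the overexpressors were alike.

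DIN11, a dioxygenase induced in darkness, had 19.2, 24.4 and 24.6 CPM in GRF1_OE, 12, 11.4 and 9.91 CPM in GRF3_OE and 1.81, 1.86 and 2.68 in the libraries labelled grf123, against 5.63, 3.18 and 2.6 in WT. It was higher in GRF1_OE than in GRF3_OE without overlap, by a log2 difference of 1.01 ± 0.18 SE (adjusted p = 0.00292, edgeR). Without WT replicate 1 the smallest absolute L of DIN11 against WT was 0.37, under the threshold of 0.4. IPS1 was lower in GRF1_OE, by a log2 difference of -1.07 ± 0.24 (adjusted p = 0.0219, edgeR), with 1 GRF1_OE library within the GRF3_OE range. AT1G23110, of no named function, had 4.75, 5.03 and 2.87 CPM in GRF1_OE, 8.66, 8.02 and 10.7 CPM in GRF3_OE and 1.01, 1.12 and 0.895 in the libraries labelled grf123, against 2.73, 3.01 and 2.6 in WT. It was lower in GRF1_OE without overlap, at -1.13 ± 0.25 (adjusted p = 0.0208, edgeR), and overlaps a pair of genes on the other strand. Only GRF3_OE gave AT1G23110 a mean of at least 5 CPM (9.14 CPM, against 4.22 in GRF1_OE). Its choice as a member thus favoured a higher level in GRF3_OE. The calls of IPS1 and AT1G23110 did not hold in all repeats. IPS1 lost its call with the 6 overexpressor libraries fitted alone (adjusted p = 0.0563), and with any of GRF1_OE replicate 1 or 2 and GRF3_OE replicate 1 or 3 left out (0.0942 to 0.259). AT1G23110 lost it in DESeq2 (adjusted p = 0.0583), and with any GRF1_OE replicate or GRF3_OE replicate 3 left out (0.0547 to 0.198).

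**Figure D4:**
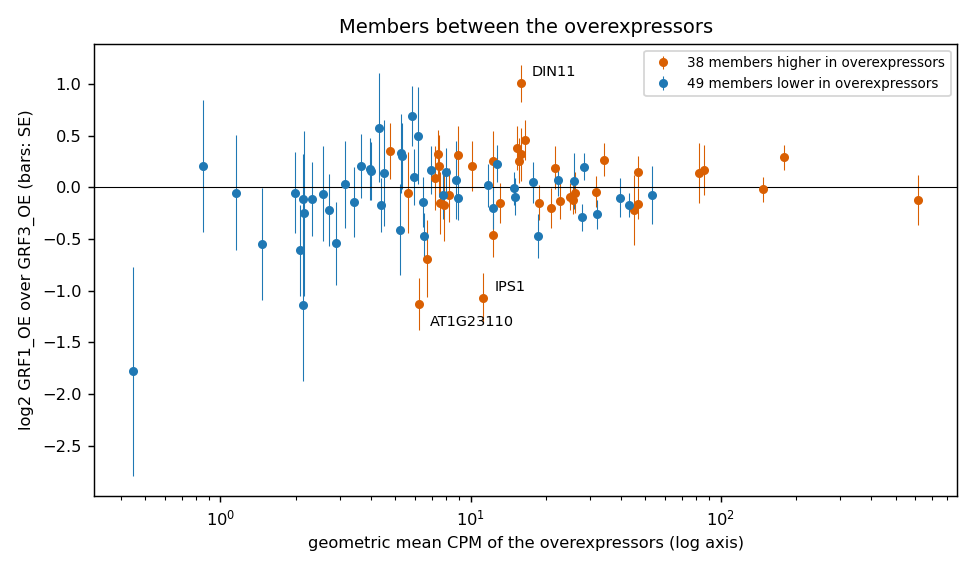
Log2 difference of GRF1_OE from GRF3_OE (vertical axis, bars are SE) against the geometric mean CPM of both overexpressors (horizontal log axis) for 38 members higher (orange) and 49 lower (blue) than WT. Only DIN11 at 1.01, IPS1 at -1.07 and AT1G23110 at -1.13 passed edgeR's adjusted p of 0.05, and the widest bars belong to members under 3 CPM.

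Members also varied together among libraries of the same genotype. The rule used the means of these libraries, so a library that stands apart can enter both membership and the correlations. After each genotype's mean was subtracted from log2 CPM, the correlation over 12 libraries had a median of 0.21 over 703 pairs within the first kind and 0.30 over 1176 pairs within the other. It was -0.09 over 1862 pairs across kinds, and 0.04 over all pairs of kept loci. Without WT replicate 3, the library of least depth, the medians were 0.23, 0.34 and -0.09. No other library was left out here. All pairs share the same libraries and their depths, so these are descriptions.

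Near the threshold the set shaded into its surroundings. The smallest of the 3 absolute L values was between 0.4 and 0.5 for 16 of the 38 and 22 of the 49, and at least 0.8 for 3 and 6. A further 11 loci of the first pattern and 29 of the other had a smallest value from 0.35 to just under 0.4. Just inside were UBC17, a ubiquitin-conjugating enzyme, with L of 0.79 in GRF1_OE, 0.55 in GRF3_OE and -0.41 in the libraries labelled grf123, and AT4G38100, with 0.47, 0.48 and -0.41. Just outside were AT3G07460, with 0.44, 0.40 and -0.46, and the heat shock factor HSFA3, with 0.78, 0.40 and -0.52. On the other side AT1G23340, with -0.61, -0.40 and 0.42, and AT1G68810, with -0.50, -0.42 and 0.40, were just inside. AT1G33440, with -0.47, -0.40 and 0.49, and AT3G45680, with -0.90, -0.46 and 0.39, were just outside.

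Membership depended on single libraries. With each of the 12 libraries left out in turn, 11 of the 38 and 12 of the 49 met the rule all 12 times, and 27 and 32 met it at least 10 times. The 11 were SEP3, AT1G27020, AT1G32460, GASA1, AT3G19550, AOC1, LAS1, AT4G15680, WRKY26, CYP81D1 and PDF1.2, and the 12 were AT1G49450, GolS2, EXPB1, PAL4, AT3G25190, AT3G27250, ABCB15, HTA4, AT5G23750, PEL3, AT5G48490 and LTI78. The number of members then ran from 78 to 111. Without replicate 3 labelled grf123 the rule took 66 genes of the first kind and 36 of the other, 68 of them among the 87. Keeping the 18S ribosomal locus in library sizes gave 42 of the first kind and 24 of the other, against 38 and 49.

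Members lie on all 5 nuclear chromosomes. The nearest to GRF1 was LAX2, 694 kb away, the nearest to GRF2 was AT4G38100 at 162 kb, and the nearest to GRF3 was GH9B8 at 1270 kb. Their exonic length had a median of 1280 bases over the 38 and 1840 over the 49, against 1820 over kept loci. Of the 87, 13 overlap another annotated gene, 11 of them on the opposite strand only.

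Promoters were read from the TAIR10.1 assembly as the 250 bases before and 50 after each annotated gene start, and searched on both strands for fixed letters. The core CTGACA, whose other strand reads TGTCAG, contains the bases known from binding of GRF7. It was present in 2 of 38 members higher in the overexpressors (5.26%, 95% Wilson interval 1.46 to 17.3), in 4 of 49 lower ones (8.16%, 3.22 to 19.2) and in 6.85% of 15588 kept loci with a promoter. The share over all 87 was 6.90%, close to that background. The letters TATAAA occurred in 31 of the 38 (81.6%, 66.6 to 90.8) and in 28 of the 49 (57.1%, 43.3 to 70.0), against 50.8% of kept loci. In the 250 bases before the start alone the shares were 76.3% over the 38 and 51.0% over the 49, against 45.6% of kept loci. Intervals cover counting error only.

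The other motifs were rarer. The W-box TTGACC, bound by WRKY factors, was in 15.8% of the 38 and 2.04% of the 49, against 14.2% of kept loci. The site II element TGGGCC was in 10.5% of the 38 and 4.08% of the 49, against 20.4%. The evening element AAATATCT was in 10.5% and 2.04%, against 6.11%, and the G-box CACGTG in 5.26% and 10.2%, against 9.12%. The abscisic acid response elements ACGTGTC and ACGTGGC, which can overlap a G-box, were in 2.63% and 5.26% of the 38 and in 8.16% and 2.04% of the 49, against 5.05% and 5.04%. The phosphate element GNATATNC was in 5.26% and 10.2%, against 6.19%, and the heat shock element was in 1 of the 87.

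**Figure D5:**
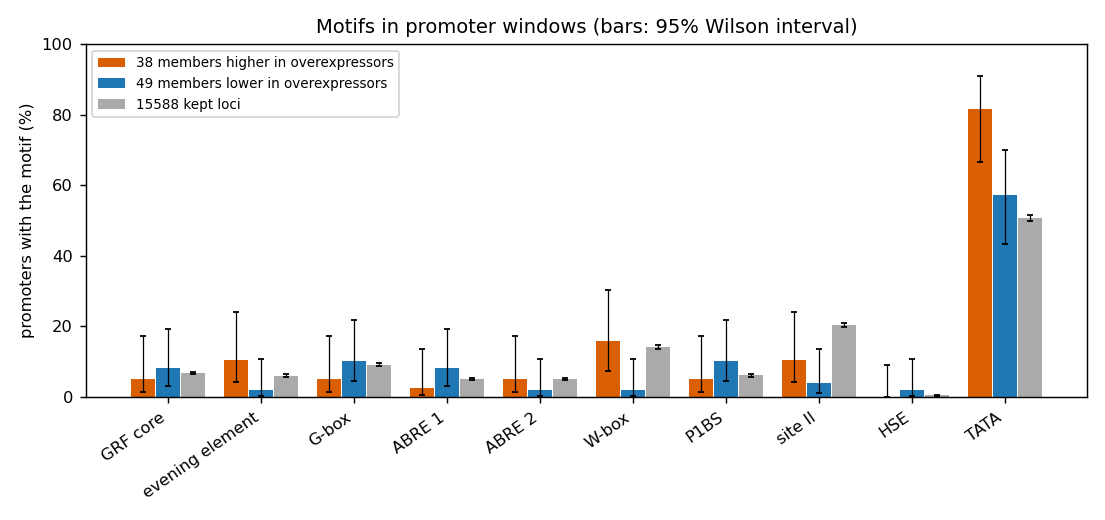
Share of promoter windows (vertical axis, percent) that hold each motif (horizontal axis), for 38 members higher in the overexpressors (orange), 49 lower ones (blue) and 15588 kept loci (grey), with 95% Wilson intervals. The GRF core stands at 5.26%, 8.16% and 6.85%, and the TATA letters at 81.6%, 57.1% and 50.8%.

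The 250 bases before the start are given for 4 of the 5 members with the GRF core there, to show where it lies, 5′ to 3′ on the gene's strand with the core in capitals. They are THI2.2 at chr5:14562864-14563113 on the minus strand, FMO GS-OX2 at chr1:23151384-23151633 on the plus strand, MSRB7 at chr4:11585543-11585792 on the minus strand and FBH3 at chr1:18945813-18946062 on the minus strand, all in TAIR10.1.
THI2.2: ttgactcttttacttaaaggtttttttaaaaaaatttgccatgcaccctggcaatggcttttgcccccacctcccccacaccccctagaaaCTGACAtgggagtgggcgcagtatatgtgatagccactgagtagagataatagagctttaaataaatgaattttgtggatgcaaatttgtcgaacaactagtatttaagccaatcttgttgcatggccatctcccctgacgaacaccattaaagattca
FMO GS-OX2: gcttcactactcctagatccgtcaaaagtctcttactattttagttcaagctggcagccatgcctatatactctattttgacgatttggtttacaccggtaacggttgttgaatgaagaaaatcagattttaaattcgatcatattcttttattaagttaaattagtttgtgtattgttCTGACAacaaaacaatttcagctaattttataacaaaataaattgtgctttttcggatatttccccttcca
MSRB7: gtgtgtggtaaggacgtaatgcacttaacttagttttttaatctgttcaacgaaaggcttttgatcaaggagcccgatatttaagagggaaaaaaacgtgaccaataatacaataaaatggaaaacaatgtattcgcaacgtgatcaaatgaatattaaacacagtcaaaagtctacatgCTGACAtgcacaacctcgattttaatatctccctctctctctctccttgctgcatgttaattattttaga
FBH3: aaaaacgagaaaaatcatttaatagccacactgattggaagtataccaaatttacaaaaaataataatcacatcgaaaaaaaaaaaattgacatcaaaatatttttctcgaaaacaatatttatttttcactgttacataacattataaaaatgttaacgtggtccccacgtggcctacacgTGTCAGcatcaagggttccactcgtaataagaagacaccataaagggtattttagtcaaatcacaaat
The core begins 159, 71, 70 and 68 bases before the start in this order. FMO GS-OX2, an enzyme of glucosinolate oxidation, had 3.3, 4.5 and 4.93 CPM in GRF1_OE, 4.13, 2.9 and 4.19 CPM in GRF3_OE and 8.25, 7.44 and 12.7 in the libraries labelled grf123, against 6.75, 5.48 and 6.76 in WT, in 3 separate ranges, and the values of the other 3 are above. MSRB7 is the only one of these 4 that was higher in the overexpressors.

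AT3G19550, at chr3:6788425-6788674 on the minus strand, illustrates the TATA letters, in capitals in either orientation, the last match beginning 47 bases before the start. Of the members higher in the overexpressors it has the largest smallest L among those that hold them there.
AT3G19550: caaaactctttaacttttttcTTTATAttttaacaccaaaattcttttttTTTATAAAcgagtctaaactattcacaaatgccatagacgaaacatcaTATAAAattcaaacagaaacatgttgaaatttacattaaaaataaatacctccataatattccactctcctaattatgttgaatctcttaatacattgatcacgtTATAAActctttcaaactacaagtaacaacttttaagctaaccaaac
A match is a description of letters and not a binding site, and a window without a match says nothing of more distant sequence.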

How the data were processed

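Raw counts of reads per locus were deposited by the authors in 1 table per library, without normalization. Reads were processed with Trimmomatic, TopHat2 2.0.14, HTSeq and DESeq2 on TAIR10, per the submitters' processing notes. The annotation release and any use of strand in counting are not given in the sources used here. There were 5 rows per library that name no gene, which held 57.6 to 76.9% of all counts and were left out. CPM were counts per 1000000 gene counts without the 18S ribosomal locus AT3G41768, which is the scale of every level given. Of 28775 loci, 28009 matched the TAIR10.1 annotation, which gave symbols, positions and promoters. The sequence of 1 promoter is not reported here.

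All 12 libraries entered a fit in edgeR 4.0.16 (R 4.3.3), normalised by TMM and filtered with filterByExpr at a count of 10 and a total of 15. Genotype was the only term, tested by the robust quasi-likelihood F test. It tested 17938 genes, all 87 members among them, with a common biological coefficient of variation of 0.107 on 8 residual degrees of freedom. Benjamini-Hochberg adjusted p under 0.05 was called. The SE was the absolute log2 change over the square root of F, and DESeq2 1.42.0 was an alternative.

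The members, the gene lists and the tests were chosen with earlier results of these data known. Named with values were the 10 members per direction with the largest smallest absolute L, members on the lists, neighbouring members, members called between the overexpressors and those nearest the threshold. Other members were named after their values were seen. The symbol CCR1 resolved to a gene outside lignin synthesis and was left out of its list. Groups and replicate numbers came from the sample titles.

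Same-numbered libraries of GRF3_OE and WT had deviations correlated at 0.161, 0.118 and 0.11, all over the cutoff of 0.1 for pairing, and those of the other pairs of genotypes were not all over it. The labels give a block design and do not say that a replicate number marks a block. In 3 against 3 libraries an exact permutation test of 1 gene cannot go below 0.1, so none was run.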

Additional observations from a re-analysis of the deposited data

Results flagged for a closer look

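The differences of 3 of the 87 members between the overexpressors had an adjusted p under 0.05 (edgeR), against 1.14% of 17938 tested genes. Members were chosen by the means compared here, so this is a description. The calls of IPS1 and AT1G23110 did not hold in all repeats. DIN11 was higher in GRF1_OE than in GRF3_OE by 1.01 on the log2 scale, without overlap of the 3 libraries of each genotype. IPS1 was lower in GRF1_OE than in GRF3_OE, with a log2 difference of -1.07 and 1 GRF1_OE library within the GRF3_OE range. AT1G23110 was lower in GRF1_OE, with a log2 difference of -1.13 and no overlap, and only GRF3_OE carried it past the filter of 5 CPM. In all 3 genes L against WT had the same sign in both overexpressors, as the rule requires, and the difference tested here is one of size.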

How the results depend on the processing

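The rule took 87 members. It took 185 with a threshold of 0.3 and 49 with 0.5, and 137 with a mean of at least 1 CPM. With TMM-scaled library sizes it took 31 of the first kind and 53 of the other, and with AT3G41768 kept in library sizes 42 and 24. Leaving out each library in turn gave 78 to 111 members. Members called between the overexpressors were 3, against 1.14% of all tested genes, with 1 to 4 when a library was left out. Members called against WT were 52 in GRF1_OE (33 to 55), 41 in GRF3_OE (24 to 48) and 23 in the libraries labelled grf123 (8 to 29). GRF1_OE dropped to 33 without its replicate 1 or 3. GRF3_OE dropped to 24 without its replicate 2 and to 26 without WT replicate 1. The libraries labelled grf123 dropped to 14 without replicate 2, to 11 without replicate 3, to 15 without WT replicate 1 and to 8 without WT replicate 2. The smallest signed L of AMT1;3 ran from -0.01 without grf123 replicate 3, a reversed sign, to 0.77 without grf123 replicate 1 or 2. Over all pairs of genotypes, same-numbered libraries had deviations correlated between -0.166 and 0.161, and GRF3_OE with WT was the pair of genotypes with all 3 over 0.1. With a replicate block, 3 members were called between the overexpressors, 52 against WT in GRF1_OE, 46 in GRF3_OE and 17 in the libraries labelled grf123. Causes of these changes were not tested. The fewest gene counts, 2820223, were in WT replicate 3, where a low CPM stands on the fewest reads.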
